A study of Homo sapiens with 5 samples.

Results

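The 35 genes described here carry out or control the synthesis of cholesterol and fatty acids, and were chosen as a list of named genes. The choice was made with earlier results of these data known, so shares set against all genes are a description. A member was measured where an array feature was annotated with its symbol and no other, and the brightest such feature by mean level would stand for a gene with several. Of the 35 listed genes, 29 were measured, out of 14232 genes measured in all. SREBF2, ACAT2, CYP51A1, HSD17B7 and ELOVL5 lay only on features annotated with several symbols, and FDFT1 was not named on any feature here. Each of the 29 measured members had 1 feature, so no choice between features was needed.

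The study used human lung cancer cell lines to alter NEDD9, a scaffold protein of focal adhesions. A549 cells carry a loss-of-function mutation of LKB1 (gene symbol STK11), a kinase that activates the energy sensor AMPK, and have raised NEDD9. They were measured with NEDD9 hairpin 1, with NEDD9 hairpin 2 and as a control, on 1 exon array each. CRL-5907 cells have wild-type LKB1 and little NEDD9, and were measured with NEDD9 overexpression and as a control, again on 1 array each. Whether the controls received an empty or a non-targeting construct, and whether the arrays came from separate cultures or clones, is not given in the labels. Any p-value below therefore measures only the spread between these arrays, which may be technical.

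In animal cells sterol and fatty acid synthesis are controlled by the SREBP transcription factors, encoded by SREBF1 and SREBF2. They are made as membrane proteins of the endoplasmic reticulum, where SCAP escorts them and INSIG proteins hold the complex back when sterols are plentiful. When sterols fall, SCAP carries SREBP to the Golgi, proteases release the active fragment, and genes of the pathway, INSIG1 among them, are transcribed. AMPK phosphorylates and inhibits acetyl-CoA carboxylase, and has been reported to restrain SREBP, which is a known link between LKB1 and lipid synthesis.

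Values are normalised log2 expression levels, on which a difference of 1 is a 2-fold difference. A probe's brightness depends on its sequence, so levels were compared between arrays for the same gene and not between genes. NEDD9 itself stood at 8.35 with hairpin 1 and 8.52 with hairpin 2, against 8.94 in the A549 control, which is 1.5-fold and 1.33-fold lower. It stood at 9.49 with overexpression, against 4.66 in the CRL-5907 control, an at least 28.5-fold difference, since the control array had it below its median, where a signal over background was not shown. The knockdown was thus small beside the overexpression, and the NEDD9 level was lower with both hairpins in A549 and higher with overexpression in CRL-5907, as labelled. STK11 lay between 6.11 and 6.23 on the 5 arrays, with equal values on 3 of them, and the array did not separate the lines by the level of this transcript. All 6 epithelial markers (EPCAM, CDH1 and 4 keratins) lay above each array's median, while 4 of 4 endothelial markers, 4 of 5 fibroblast markers and 3 of 4 measured leukocyte markers lay below it on every array. CD14, the remaining leukocyte marker, was at 6.08 with hairpin 1 and 5.63 with hairpin 2, against 6.47 in the A549 control, and its part in the results below was not tested. On bulk RNA, fewer cells making a transcript and less transcript per cell cannot be told apart.

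Promoter sequence is shown for the members on which the comparisons turn: the 5 that were at least 1.5-fold higher with NEDD9 overexpression, INSIG1 for its difference between the lines, and SCD5 for its difference with both hairpins. Each window runs from 250 bases before to 50 bases after a RefSeq transcript start in GRCh38.p14. Where a gene had several windows, the one with most CCAAT boxes is printed. The sequence is written 5′ to 3′ on the gene's strand, and capitals mark CCAAT or its reverse complement ATTGG, the box bound by NF-Y, a known partner of SREBP at sterol-regulated promoters. The HMGCS1 window is chr5:43313363-43313662 on the minus strand, IDI1 is chr10:1048837-1049136 on the minus strand, and NSDHL is chrX:152830813-152831112 on the plus strand. FADS1 is chr11:61816954-61817253 on the minus strand and FADS2 is chr11:61816154-61816453 on the plus strand. INSIG1 is chr7:155297628-155297927 on the plus strand and SCD5 is chr4:82798747-82799046 on the minus strand.
HMGCS1: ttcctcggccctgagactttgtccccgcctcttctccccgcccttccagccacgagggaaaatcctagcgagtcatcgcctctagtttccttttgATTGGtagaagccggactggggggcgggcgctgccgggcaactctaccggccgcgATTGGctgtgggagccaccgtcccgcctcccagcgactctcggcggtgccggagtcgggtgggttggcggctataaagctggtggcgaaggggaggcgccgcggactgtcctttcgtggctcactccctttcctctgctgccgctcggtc
IDI1: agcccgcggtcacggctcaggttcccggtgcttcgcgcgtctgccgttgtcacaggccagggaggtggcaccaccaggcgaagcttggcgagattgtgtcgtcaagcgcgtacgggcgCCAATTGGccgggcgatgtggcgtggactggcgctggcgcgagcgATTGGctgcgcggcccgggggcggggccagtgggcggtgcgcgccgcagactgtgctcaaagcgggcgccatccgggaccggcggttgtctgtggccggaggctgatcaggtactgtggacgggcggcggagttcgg
NSDHL: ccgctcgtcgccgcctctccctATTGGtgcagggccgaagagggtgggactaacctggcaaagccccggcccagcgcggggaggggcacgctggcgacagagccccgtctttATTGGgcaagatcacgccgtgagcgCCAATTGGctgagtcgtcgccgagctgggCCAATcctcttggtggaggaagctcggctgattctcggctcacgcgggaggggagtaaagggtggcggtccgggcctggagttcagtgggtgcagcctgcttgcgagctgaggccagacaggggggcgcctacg
FADS1: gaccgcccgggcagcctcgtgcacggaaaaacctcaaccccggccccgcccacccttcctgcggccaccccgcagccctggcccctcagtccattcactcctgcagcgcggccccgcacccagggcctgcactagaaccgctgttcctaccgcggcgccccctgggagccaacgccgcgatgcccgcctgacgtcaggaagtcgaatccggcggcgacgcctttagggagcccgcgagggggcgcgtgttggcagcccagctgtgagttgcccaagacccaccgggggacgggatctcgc
FADS2: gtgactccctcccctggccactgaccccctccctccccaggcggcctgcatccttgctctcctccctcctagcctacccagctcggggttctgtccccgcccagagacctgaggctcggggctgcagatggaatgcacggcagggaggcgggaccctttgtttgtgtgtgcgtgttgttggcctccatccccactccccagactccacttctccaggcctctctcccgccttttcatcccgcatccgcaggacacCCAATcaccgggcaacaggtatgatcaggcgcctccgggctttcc
INSIG1: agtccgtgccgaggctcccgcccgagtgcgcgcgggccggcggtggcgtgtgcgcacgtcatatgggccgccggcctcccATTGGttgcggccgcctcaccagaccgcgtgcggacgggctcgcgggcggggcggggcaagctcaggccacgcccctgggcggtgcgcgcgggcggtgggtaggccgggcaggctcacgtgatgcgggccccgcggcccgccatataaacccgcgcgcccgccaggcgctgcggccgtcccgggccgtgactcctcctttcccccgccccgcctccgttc
SCD5: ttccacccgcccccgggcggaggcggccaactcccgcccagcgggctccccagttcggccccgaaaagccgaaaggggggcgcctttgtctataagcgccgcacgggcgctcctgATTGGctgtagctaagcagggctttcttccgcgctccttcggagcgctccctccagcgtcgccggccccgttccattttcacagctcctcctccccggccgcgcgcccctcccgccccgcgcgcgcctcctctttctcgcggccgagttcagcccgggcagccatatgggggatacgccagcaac

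The NSDHL window holds 5 CCAAT boxes over both strands, IDI1 holds 3, HMGCS1 holds 2, and FADS2, INSIG1 and SCD5 hold 1 each. In NSDHL and in IDI1, 2 of these boxes overlap within CCAATTGG, which was counted once on each strand. The FADS1 window holds none. In HMGCS1 the boxes begin 155 and 100 bases before the start, and in IDI1 132, 129 and 87 bases before it. Of the 29 measured members, 27 had a promoter window in the RefSeq table, and SQLE and FASN are only named. A CCAAT box on either strand was present in at least 1 window of 20 of these 27 genes, or 74.1%, against 43.0% of 11385 array genes with a window. The share was 12 of 13 (92.3%) for cholesterol enzymes, with PMVK the gene without a box, and 6 of 9 (66.7%) for fatty acid enzymes. At least 3 boxes in 1 window were found in 7 of 27 members (25.9%), against 4.93% of array genes. Overlapping boxes were counted separately in both shares, and IDI1 reached 3 only in this way. GGGCGG, the GC box, was present in 26 of 27 members (96.3%), against 67.2% of array genes, and NSDHL was the member without it. CACGTG, the E-box, was present in 4 of 27 members (14.8%), against 11.3%. TCACNCCAC, a sterol regulatory element core, was present in 0 of 27, against 1.62%, which says only that these letters are not in these windows. The shorter CACNCCAC, added after that search, was present in INSIG1, IDI1, SC5D, ACACA and SCD (18.5%), against 8.22% of array genes. Both strands were searched each time, the shorter sterol motif lies within the longer one, and ATTGG and GGGCGG can share bases where they adjoin. These shares are a description of sequence and not of binding.

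With NEDD9 overexpression in CRL-5907, most genes of sterol and fatty acid synthesis stood higher than in the control. Of the 26 members that passed a level filter, 22 were higher, against 58.7% of all 7406 genes that passed it, and 4 were lower, against 37.5%. The filter kept genes that, on the brighter or brightest array compared, exceeded the median of that array's named features, and INSIG2, SCD5 and ELOVL6 did not pass it. Without the filter 23 of all 29 members were higher, against 6843 of all 14232 genes. The median difference over all 29 members was 0.34, against 0 over all 14232 genes and 0.05 over those above level. A gain of at least 1.5-fold (0.585 on the log2 scale) was reached by HMGCS1, IDI1, NSDHL, FADS1 and FADS2, which is 5 of 26, or 19.2%, against 3.5% of all genes. No member was 1.5-fold lower, against 0.851% of all genes. Each group was a single array, so no replicate checks these differences and they were not tested.

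A yardstick of array spread came from the hairpin pair in A549, as the SD of the difference between the 2 hairpin arrays over genes of like level. It ran from 0.13 to 0.22 over the members' levels, and it includes any true difference between the hairpins. With overexpression 22 of the 26 members above level were higher than control by more than this spread, against 30.9% of all genes above level, and 1, TM7SF2, was lower by more than it, against 14.7%. The spread of CRL-5907 arrays themselves was not measured.

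**Figure D1:**
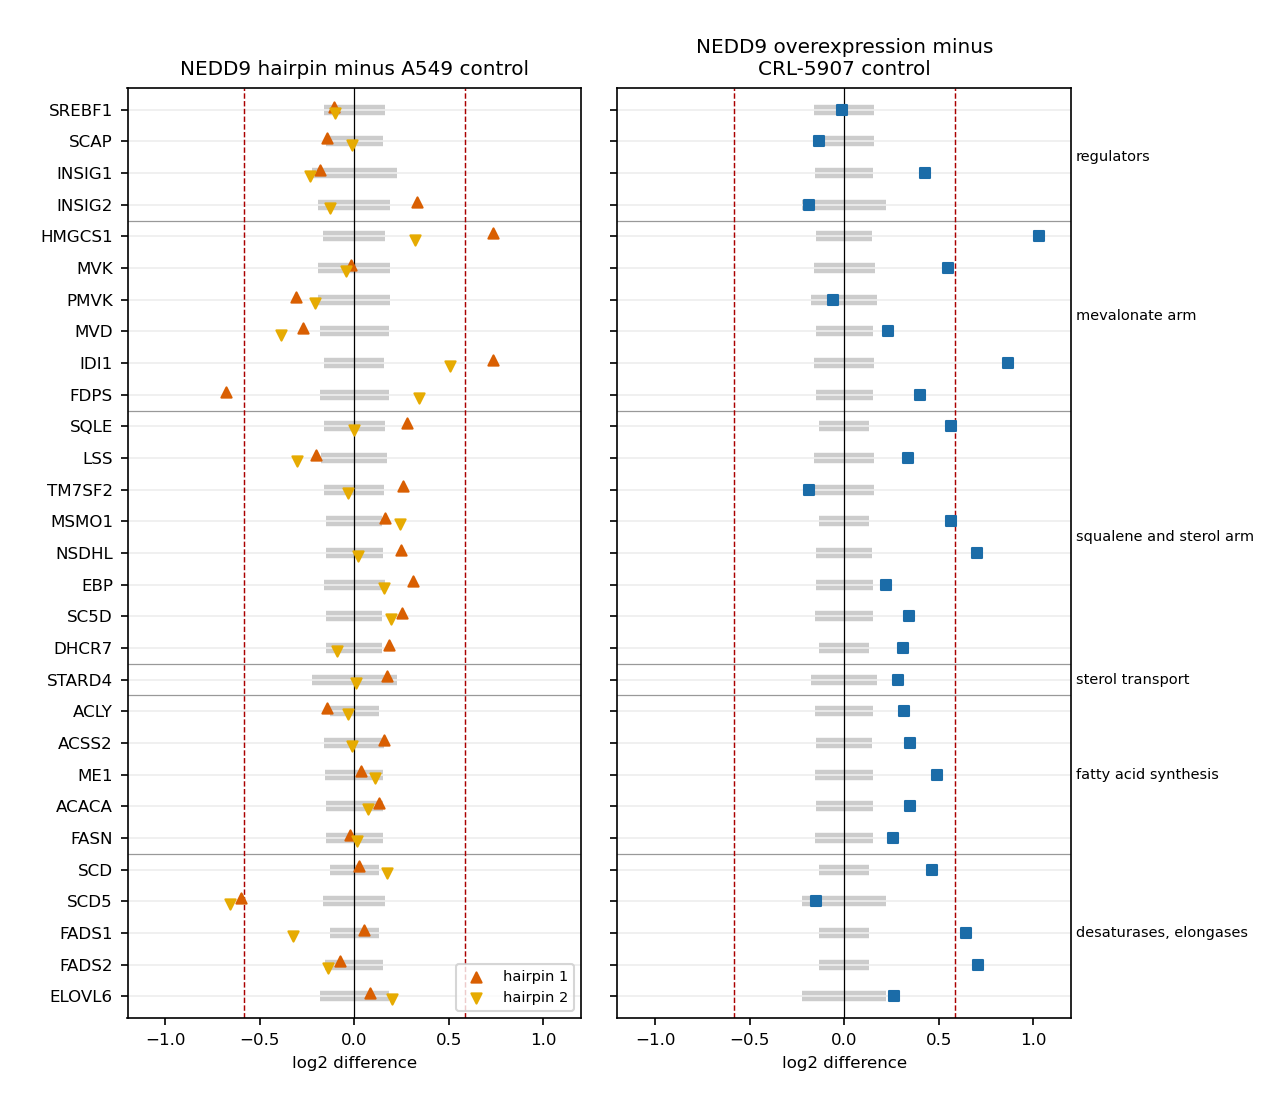
Log2 difference of each of the 29 members from the control of its line, with the 2 NEDD9 hairpins in A549 on the left and NEDD9 overexpression in CRL-5907 on the right. Grey bars span the hairpin-to-hairpin SD at the gene's level on either side of 0, and dashed lines mark 1.5-fold. On the right HMGCS1 (1.03), IDI1 (0.87), FADS2 (0.71), NSDHL (0.70) and FADS1 (0.64) lie past the upper line, while on the left SCD5 is the member past a line with both hairpins.

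The mevalonate arm turns acetyl-CoA units into isoprenoid building blocks, and held the largest differences with overexpression. HMGCS1, the synthase that makes HMG-CoA, was at 8.84 with overexpression, against 7.81 in the CRL-5907 control. This 2.04-fold difference was the 46th highest of the 7406 genes. IDI1, the isomerase of isopentenyl diphosphate, was at 8.16 with overexpression and 7.29 in the control, and ranked 69th. MVK, the mevalonate kinase, was at 7.25 with overexpression and 6.70 in the control, 0.55 higher and just short of 1.5-fold. FDPS, which makes farnesyl diphosphate, was at 7.46 with overexpression and 7.06 in the control. MVD, the decarboxylase that makes isopentenyl diphosphate, was at 7.57 with overexpression and 7.34 in the control. PMVK, the kinase before it, was the exception of this arm, at 5.87 with overexpression and 5.93 in the control.

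In the squalene and sterol arm, which builds and trims the sterol ring, 7 of 8 measured members were higher with overexpression. This compares with 58.7% of all genes above level, and the median difference of the arm was 0.34. NSDHL, a sterol dehydrogenase that acts in the removal of the ring's extra methyl groups, was at 8.41 with overexpression and 7.70 in the control, 1.63-fold higher. MSMO1, the methyl sterol monooxygenase of the same step, was at 10.36 with overexpression and 9.79 in the control, and SQLE, the squalene epoxidase, at 10.05 with overexpression and 9.49 in the control. MSMO1 (0.57) and SQLE (0.56) thus lay just below the 1.5-fold line, as MVK did. LSS, which closes the ring to lanosterol, differed by 0.34, SC5D, a late desaturase, by 0.34, DHCR7, which reduces the last precursor of cholesterol, by 0.31, and EBP, a sterol isomerase, by 0.22. TM7SF2, a sterol C14 reductase, was at 6.58 with overexpression and 6.76 in the control. STARD4, a carrier of cholesterol in the cytosol, was at 6.01 with overexpression and 5.73 in the control.

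Fatty acid enzymes also stood higher with overexpression, 9 of 10 measured, against 6843 of all 14232 genes, with a median difference of 0.35. FADS2 and FADS1, the front-end desaturases that make polyunsaturated fatty acids and lie next to each other on chromosome 11, were 1.64-fold and 1.56-fold higher. FADS2 was at 10.06 with overexpression and 9.35 in the control, and FADS1 at 10.03 with overexpression and 9.39 in the control. FADS1 was 0.57 higher, short of 1.5-fold, after further quantile normalisation or after removing the trend of differences with level, and the other 4 stayed past the line under both. SCD, the stearoyl-CoA desaturase that makes monounsaturated fatty acids, was at 11.19 with overexpression and 10.73 in the control. The enzymes that supply and build the carbon chain differed by 0.26 to 0.49. ME1, the malic enzyme that supplies NADPH, was 0.49 higher. ACSS2, which makes acetyl-CoA from acetate, was 0.35 higher, ACACA, the acetyl-CoA carboxylase, 0.35 higher, and ACLY, which makes acetyl-CoA from citrate, 0.32 higher. FASN, the fatty acid synthase, was 0.26 higher, at 9.0 with overexpression and 8.74 in the control. SCD5, another stearoyl-CoA desaturase, and ELOVL6, which elongates palmitate, lay below the array median on both CRL-5907 arrays, and their differences of -0.15 and 0.26 were not shown to exceed background.

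The regulators SREBF1 and SCAP did not share this pattern, whereas INSIG1 did. SREBF1 was at 7.84 with overexpression and 7.85 in the control, and SCAP at 7.47 with overexpression and 7.60 in the control. INSIG1, the sterol-induced inhibitor, was higher, at 9.15 with overexpression and 8.72 in the control, a difference of 0.43. INSIG2 was at 4.84 with overexpression and 5.03 in the control, below the median of both arrays.

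With NEDD9 knockdown in A549 the members did not move together. Of the 24 above level, 10 were higher with both hairpins, against 53.8% of all 7473 genes, and 7 were lower with both, against 21.5%. INSIG1, INSIG2, MVK, PMVK and STARD4 did not pass the level filter. The median difference over all 29 members was 0.05 with hairpin 1 and -0.01 with hairpin 2. Over all 14232 genes it was 0.02 and 0, and over all genes above level 0.10 and 0.04. Over the mean of both hairpins the members' median was 0.071, against 0.013 over all genes without the filter. No member was 1.5-fold higher with both hairpins, against 0.709% of all genes, and 1, SCD5, was 1.5-fold lower with both, against 0.134%. With hairpin 1 alone HMGCS1 and IDI1 were 1.5-fold higher, against 2.57% of all genes, and FDPS and SCD5 1.5-fold lower, against 0.535%. With hairpin 2 alone no member was 1.5-fold higher, against 1.35%, and SCD5 was 1.5-fold lower, against 0.482%. Counts of 1 or 2 among 24 members rest on single genes.

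SCD5 was at 6.42 with hairpin 1 and 6.36 with hairpin 2, against 7.02 in the A549 control. The mean difference was -0.63 ± 0.04 (SD, n = 2 hairpins), and the smaller of the 2 differences ranked 8th lowest of 7473 genes. The hairpin arrays thus lay close together and away from the control, which was a single array. In limma, with the hairpins as replicates and 1 residual degree of freedom, SCD5 had an unadjusted p of 0.009 and a Benjamini-Hochberg adjusted p of 0.276. No gene of the 7473 passed an adjusted p of 0.05, and 1309 genes, or 17.5%, had an unadjusted p under 0.05, among them the members SCD5 and SC5D. The members' adjusted p ran from 0.276 to 0.956 in limma. SCD, the paralogue of SCD5, was at 9.98 with hairpin 1 and 10.12 with hairpin 2, against 9.95 in the control.

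IDI1 and HMGCS1 were the highest members with knockdown. IDI1 was at 6.86 with hairpin 1 and 6.64 with hairpin 2, against 6.13 in the A549 control, a mean difference of 0.62 ± 0.16 (SD, n = 2 hairpins). HMGCS1 was at 6.60 with hairpin 1 and 6.19 with hairpin 2, against 5.86 in the control, a mean of 0.53 ± 0.29 (SD, n = 2 hairpins). Their limma adjusted p values were 0.312 and 0.455 with Benjamini-Hochberg adjustment, so neither passed. These genes were therefore above the control of their line both with knockdown in A549 and with overexpression in CRL-5907, which share no array. Same-sided differences of any size were found for 9 of the 22 members above level in both lines, or 40.9%. This is near the share of 35.2% over all 6843 genes. The 9 were HMGCS1, IDI1, MSMO1, NSDHL, EBP, SC5D, ME1, ACACA and SCD. Some count on differences inside the spread, such as NSDHL with hairpin 2 (0.02) and SCD and ME1 with hairpin 1 (0.03 each). The opposite pattern, lower with both hairpins and higher with overexpression at any size, was found for MVD, LSS, ACLY and FADS2. This is 4 of 22, against 10.1% of all genes, and ACLY was only 0.03 lower with hairpin 2. MVD was at 6.42 with hairpin 1 and 6.31 with hairpin 2, against 6.70 in the A549 control, and LSS at 5.90 with hairpin 1 and 5.80 with hairpin 2, against 6.10.

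The hairpins disagreed at FDPS. It stood at 5.75 with hairpin 1 and 6.77 with hairpin 2, against 6.43 in the control, so 1 hairpin array lay below the control and the other above it. The gap of 1.02 between the hairpins was the 8th largest of 7473 genes. FDPS has processed pseudogenes of closely similar sequence, and probes that match them cannot be told apart here. HMGCS1 had the next largest gap of a member above level, 0.41, and FADS1 followed with 9.65 for hairpin 1 and 9.28 for hairpin 2, on either side of the control at 9.60. By more than the spread at their level, 4 of 24 members exceeded the control on both hairpin arrays, against 23% of all genes above level. They were HMGCS1, IDI1, MSMO1 and SC5D. By the same measure MVD, LSS and SCD5 lay below the control on both, against 5.43%.

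None of the remaining members was 1.5-fold from the A549 control with either hairpin. Among sterol enzymes MSMO1 was at 7.92 with hairpin 1 and 7.99 with hairpin 2, against 7.75, SC5D at 8.06 with hairpin 1 and 8.0 with hairpin 2, against 7.80, and EBP at 7.05 with hairpin 1 and 6.90 with hairpin 2, against 6.74. These 3 were higher on both hairpin arrays, by at most 0.31, and MSMO1 and SC5D by more than the spread at their level. SQLE was at 7.16 with hairpin 1 and 6.88 with hairpin 2, against 6.89 in the control, so the hairpins did not share a difference. NSDHL, TM7SF2 and DHCR7 were likewise higher by 0.18 to 0.26 with hairpin 1 and within 0.09 of the control with hairpin 2. In the fatty acid group FASN differed by -0.02 with hairpin 1 and 0.01 with hairpin 2, ACACA by 0.13 and 0.07, ME1 by 0.03 and 0.11, and ELOVL6 by 0.08 and 0.20. ACLY differed by -0.14 and -0.03, ACSS2 by 0.16 and -0.01, and FADS2 by -0.08 and -0.14 with hairpins 1 and 2. None of these fatty acid enzymes differed by more than 0.20 with either hairpin. The regulators SREBF1 and SCAP were at 7.64 and 7.19 with hairpin 1 and at 7.65 and 7.33 with hairpin 2, against 7.75 and 7.34 in the control. SREBF1 differed by -0.11 with hairpin 1 and by -0.10 with hairpin 2, inside the spread at its level. The 5 members that did not pass the level filter lay below the array medians, and their differences were not shown to exceed background. INSIG1 was at 4.77 with hairpin 1 and 4.72 with hairpin 2, against 4.96 in the control, and INSIG2 at 5.68 with hairpin 1 and 5.22 with hairpin 2, against 5.34. PMVK was at 5.48 with hairpin 1 and 5.58 with hairpin 2, against 5.79, while MVK and STARD4 differed from the control by -0.04 to 0.18.

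**Figure D2:**
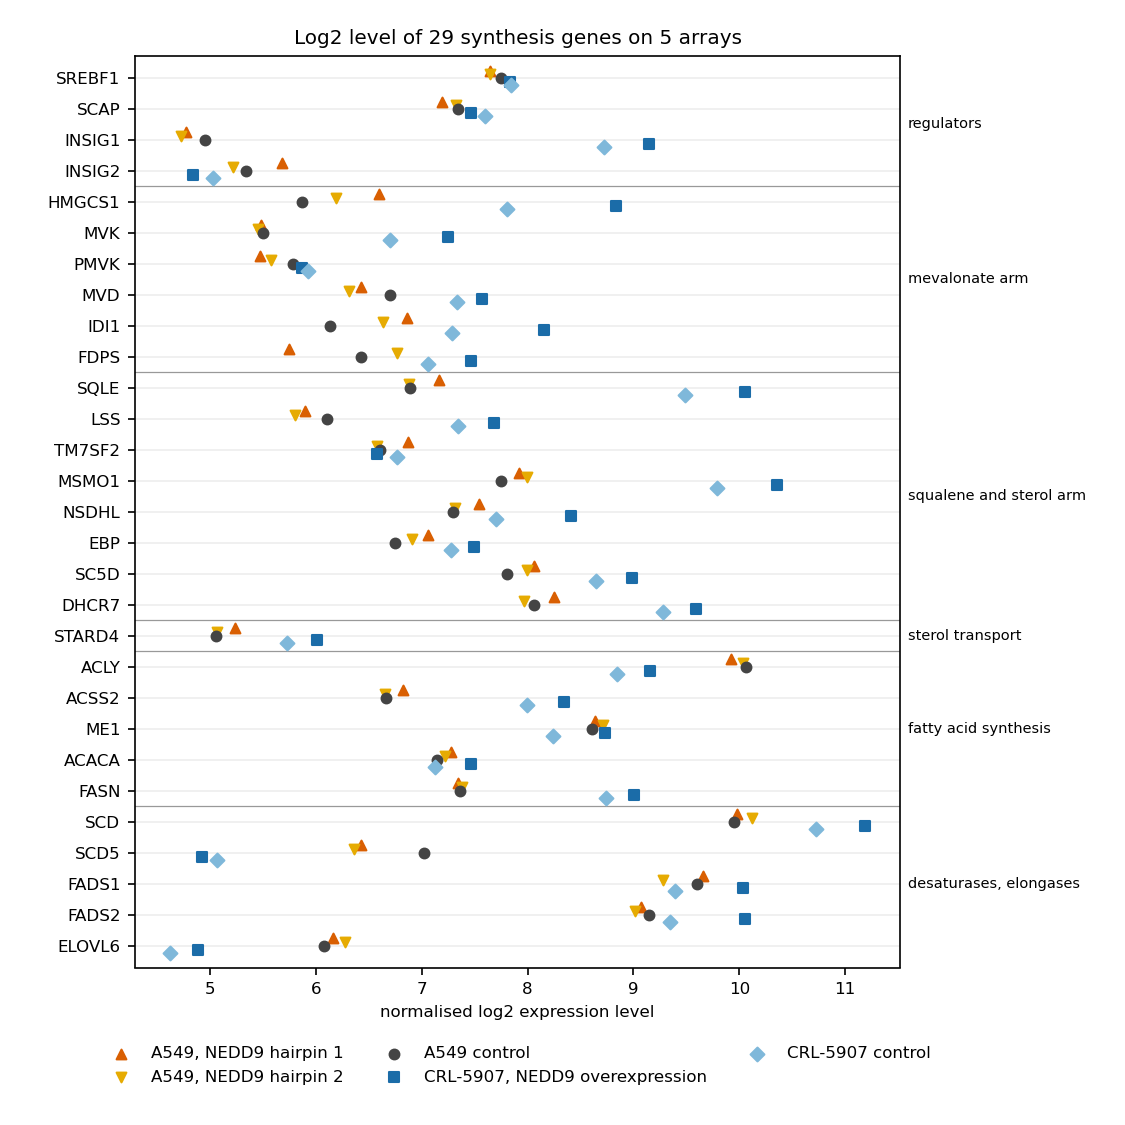
Normalised log2 level of the 29 members on each of the 5 arrays, in order of role; levels are to be read along a row, since probes of different genes are not on the same scale. For INSIG1, SQLE and MSMO1 the 3 A549 arrays lie far to the left of both CRL-5907 arrays, and for ACLY, SCD5 and ELOVL6 they lie to the right.

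Between the lines the members' median difference was further from 0 than with either manipulation. FADS1, FADS2, NSDHL, TM7SF2, ME1 and ACACA nonetheless differed by more with overexpression. Some members, FDPS with hairpin 1 among them, differed by more with a hairpin. In the A549 control 22 of 28 members above level were lower than in the CRL-5907 control, against 42.4% of 7716 genes, and 10 were lower by at least 2-fold, against 5% of all genes. The 10 were INSIG1, HMGCS1, MVK, IDI1, SQLE, LSS, MSMO1, DHCR7, ACSS2 and FASN. At least 2-fold higher in A549 were 3 of 28, ACLY, SCD5 and ELOVL6, against 9.88% of all genes. INSIG1, MVK, PMVK and STARD4 passed the level filter through the CRL-5907 array and SCD5 and ELOVL6 through the A549 array. The counts among those that passed are therefore a description. Without the filter 22 of all 29 members were lower in A549, against 5675 of all 14232 genes. The median over all 29 members was -0.63, against 0.01 over all 14232 genes and 0.05 over those above level. The lines differ in LKB1, in NEDD9 and in everything else that separates these tumours, each was a single array, and these sources cannot be told apart.

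INSIG1 had the largest difference, at 4.96 in the A549 control and 8.72 in the CRL-5907 control. The measured difference was 13.6-fold, and since the A549 value lay below that array's median and was not shown to exceed background, it is a lower limit. Both hairpin arrays (4.77 and 4.72) and the overexpression array (9.15) kept this separation of the lines.

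All 14 measured cholesterol enzymes were lower in A549 than in CRL-5907, against 42.4% of all genes above level, with a median difference of -1.0. Of the 14, 7 were lower by at least 2-fold, against 5% of all genes. SQLE was at 6.89 in the A549 control and 9.49 in the CRL-5907 control, 6.07-fold lower in A549. MSMO1 was at 7.75 in A549 and 9.79 in CRL-5907, and HMGCS1 at 5.86 in A549 and 7.81 in CRL-5907. The smallest differences of the group were those of PMVK (-0.14) and TM7SF2 (-0.15). MVK was at least 2.30-fold lower in A549, where its value lay below the array median. IDI1, DHCR7 and LSS differed by -1.16 to -1.24, and FDPS, MVD, EBP, NSDHL and SC5D by -0.41 to -0.84. STARD4 lay at 5.06 in A549 and 5.73 in CRL-5907.

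Of the 10 fatty acid enzymes 6 were higher in A549 and 4 lower, with a median difference of 0.12. This is near the share of all genes above level, of which 42.4% were lower. FASN was at 7.36 in A549 and 8.74 in CRL-5907, 2.60-fold lower in A549, and ACSS2 at 6.66 in A549 and 7.99 in CRL-5907. ACLY ran the other way, at 10.06 in A549 and 8.84 in CRL-5907, so the enzymes that make acetyl-CoA from acetate and from citrate differed in opposite directions. Among the desaturases, SCD and SCD5 also differed in opposite directions. SCD was at 9.95 in A549 and 10.73 in CRL-5907, while SCD5 was at 7.02 in A549 and 5.07 in CRL-5907, at least 3.87-fold higher in A549 because the CRL-5907 value lay below the array median. ELOVL6, at 6.08 in A549 and 4.62 in CRL-5907, was at least 2.75-fold higher for the same reason. ACACA stood at 7.14 in A549 and 7.12 in CRL-5907, and ME1 (0.37), FADS1 (0.21) and FADS2 (-0.20) differed by less than 1.5-fold. Of the regulators, SREBF1 differed by -0.10, SCAP by -0.26 and INSIG2 by 0.31, so INSIG1 was the regulator set apart between the lines by over 2-fold.

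**Figure D3:**
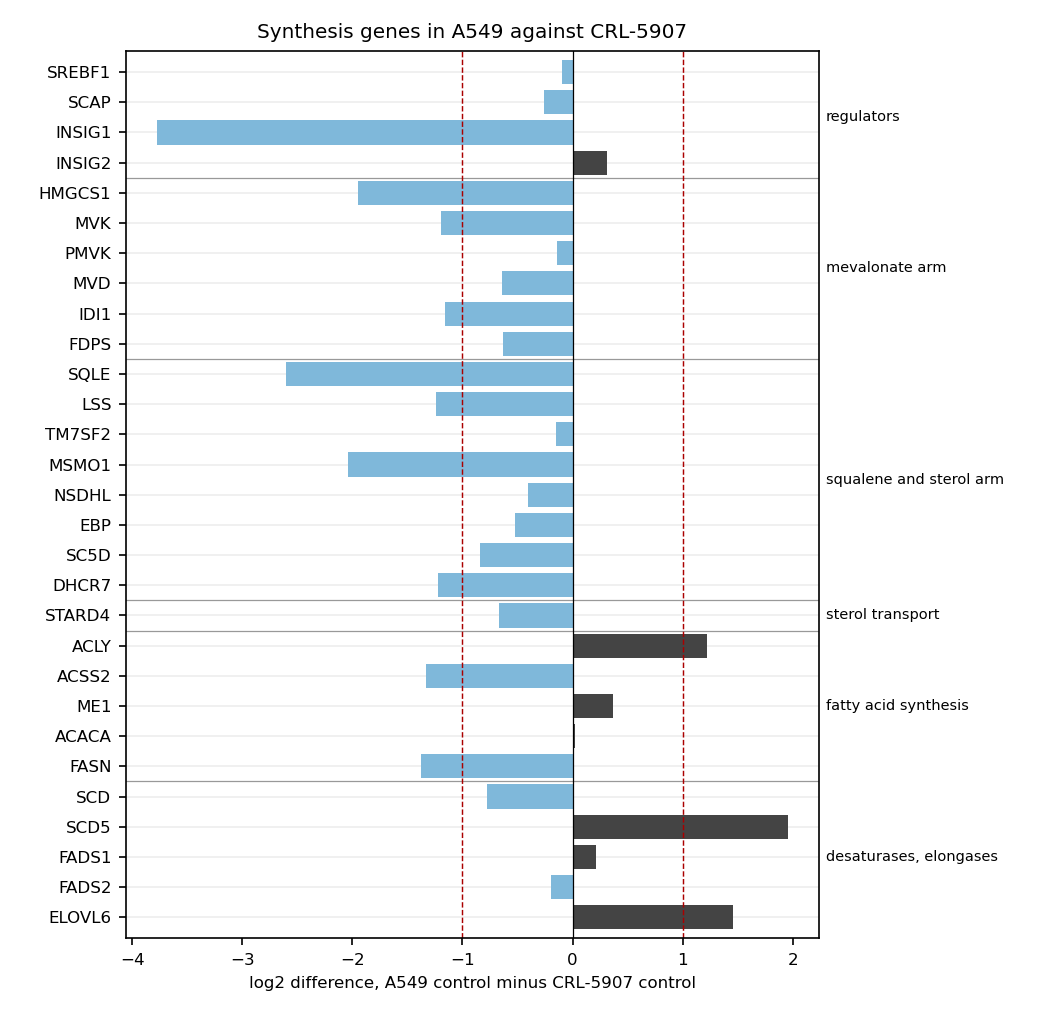
Log2 difference of the A549 control from the CRL-5907 control for the 29 members, with bars to the left where A549 was lower and dashed lines at 2-fold. All 14 cholesterol enzymes point left, while ACLY, SCD5 and ELOVL6 reach past the right-hand line.

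Taken over all arrays, and added after the values were seen, the 3 A549 arrays lay below both CRL-5907 arrays for 21 of 28 members, against 27.2% of all genes. They lay above both for ACLY, SCD5 and ELOVL6, against 40.6%. These arrays differ in NEDD9 within each line and are not repeats of a line. The count mostly repeats the difference between the controls, where 22 of 28 members were lower in A549. Most members were higher with overexpression, which widened the gap wherever A549 was the lower. The comparisons between controls and within lines share the control arrays: HMGCS1, for instance, was lower in the A549 control than on both hairpin arrays (5.86 against 6.60 and 6.19) as well as lower than in CRL-5907. Against the hairpin arrays its CRL-5907 control level of 7.81 was still the higher.

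Neighbouring pathways were read from lists of genes around the members. Among 8 measured partners of SREBP processing and degradation in the endoplasmic reticulum, TMEM97, a sterol-responsive membrane protein, was at 7.57 with overexpression and 7.13 in the CRL-5907 control, and 0.42 and 0.28 above the A549 control with hairpins 1 and 2. It stood 1.93 higher in A549 than in CRL-5907, opposite to the cholesterol enzymes. ERLIN2, a scaffold for sterol-dependent degradation, was at 5.695 with overexpression, just below that array's median, and at 6.13 in the control, and no gene of the list reached 1.5-fold with overexpression. Among 12 genes of sterol trafficking and efflux, NPC1, which exports cholesterol from lysosomes, was the gene at least 1.5-fold higher with overexpression, at 9.13 against 8.36 in the control. NR1H3, the oxysterol receptor LXR-alpha, was at 5.25 with overexpression, below that array's median, and at 5.78 in the control. SOAT1, which esterifies cholesterol, was at 8.0 with hairpin 1 and 7.90 with hairpin 2, against 7.47 in the A549 control.

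In the isoprenoid branch, which uses farnesyl and geranylgeranyl units, the 7 genes above level were all higher with both hairpins, against the 53.8% of all genes given above. The medians over all 8 measured were 0.19 and 0.15 for hairpins 1 and 2. Over all 14232 genes they were 0.02 and 0, and over all genes above level 0.10 and 0.04. FNTA, a subunit of the enzymes that attach farnesyl and geranylgeranyl groups to proteins, was 0.33 and 0.37 higher with the hairpins and 0.57 higher with overexpression. With overexpression the median of this branch was -0.02, so it did not follow the enzymes that make its substrate. Among 10 other genes of elongation and lipogenesis the median with overexpression was also -0.02. SLC25A1, the mitochondrial citrate carrier, was the highest of these, at 0.45. ELOVL2, an elongase of polyunsaturated fatty acids, was at least 2.26 higher in A549 than in CRL-5907, and ACACB, the mitochondrial acetyl-CoA carboxylase, at least 1.45 higher, both being below the median of the CRL-5907 array.

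**Figure D4:**
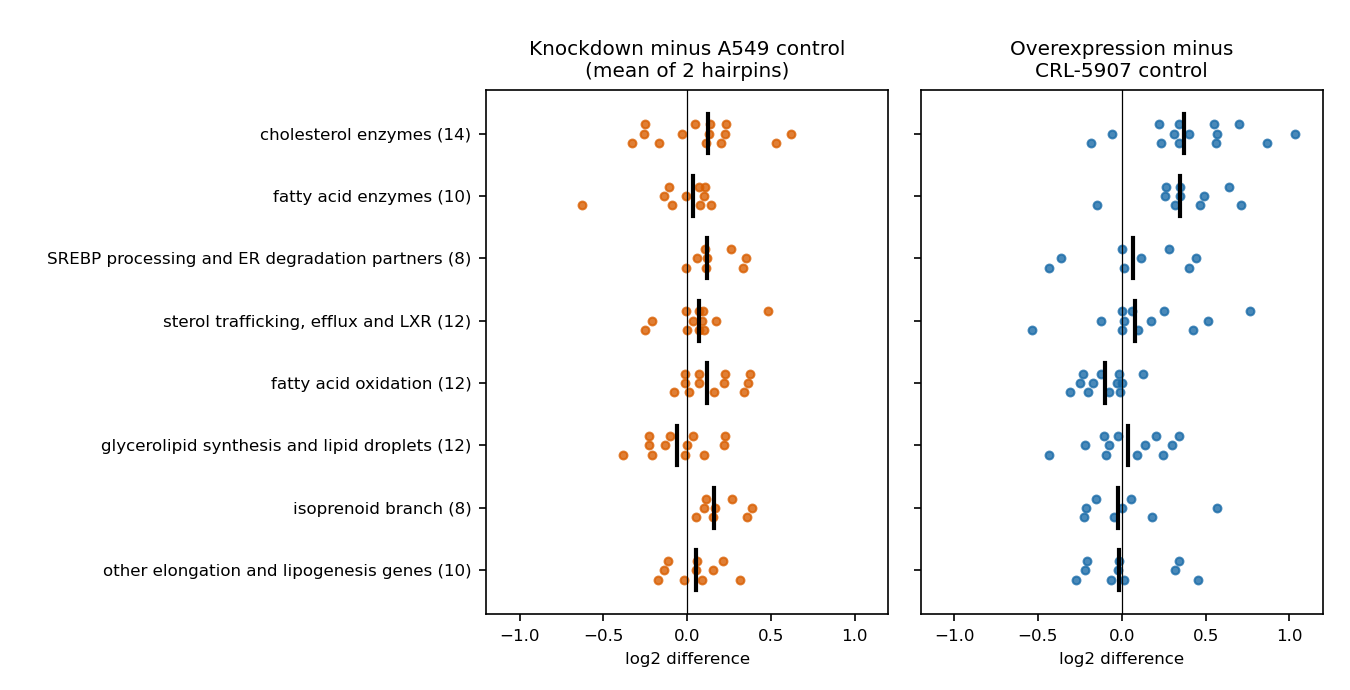
Log2 difference from control of the measured genes of each list (number in brackets), as the mean of the 2 hairpins in A549 on the left and for overexpression in CRL-5907 on the right, with black bars at the medians. With overexpression the cholesterol enzymes (median 0.37) and fatty acid enzymes (0.35) lie to the right of the other lists, whose medians lie between -0.10 and 0.08.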

How the data were processed

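Total RNA from 5 samples was depleted of ribosomal RNA, labelled as sense-strand cDNA and hybridised to exon arrays, per the labels' protocols. Per the submitters' processing notes, RMA and Affymetrix Power Tools gave the deposited values, which are log2 levels of 22011 features, and the base was taken from the values. Versions, probe-level files, background detection and genome build were not used here. The hairpin 2 description names NEDD10, and its title, which says NEDD9, was followed.

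Of the features, 14432 had 1 symbol in the platform annotation, 2408 had several and 5171 none. All 29 members matched RefSeq by Entrez number. Array medians over named features were 5.69 to 5.85. Arrays correlated at 0.989 to 0.991 within a line and 0.948 to 0.953 between lines over all features. RMA can give arrays equal values, but no measured member had any.

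Log2 differences were taken from the control of the same line, and the spread of the hairpin pair in 20 level bins. Knockdown was fitted with limma 3.58.1 in R 4.3.3 (trend, Benjamini-Hochberg over 7473 genes), which assumes that the lone control varies like the hairpins. Context genes were named by the largest differences, up to 4 per list and comparison. The fold rules and limma were tested on simulated data with changes larger than any member's difference with a manipulation. Recovery of differences as small as those reported here was not tested. Members and lists were chosen with earlier results of these data known. Alternatives covered normalisation, feature choice, level filter, fold threshold, hairpins and limma settings. The number of arrays limits precision.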

Additional observations from a re-analysis of the deposited data

How the results depend on the processing

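Within each comparison the direction of every median was kept except for knockdown. The members' median over the mean of both hairpins, 0.071 as reported, was 0.0199 with arrays centred on their medians, -0.0193 after further quantile normalisation and -0.0234 with the trend with level removed, and ran from -0.0105 to 0.053 with either hairpin left out. These scalings also moved the median of all genes by up to about 0.1, and the cause was not tested. The median with overexpression lay between 0.255 and 0.342 and that between lines between -0.738 and -0.634 under the same alternatives. The count of members lower with both hairpins was 0 with the filter at the 75th percentile, which SCD5 did not pass, and 1 to 2 with either hairpin left out. The count higher was 1 (IDI1) at 1.3-fold, against 3.52% of all genes, and 0 to 2 with either hairpin left out: without hairpin 2, HMGCS1 and IDI1 passed and FDPS was called lower. With overexpression the count higher was 12 at 1.3-fold, against 9.42%. Between lines the count higher in A549 was 1 with the 75th percentile filter, against 11.9% of all genes. The limma fits without a trend, with all 5 arrays, without a level filter and after quantile normalisation also called 0 genes at an adjusted p of 0.05, with a lowest of 0.112, while 1204 to 2220 genes had an unadjusted p under 0.05. No paired analysis was possible because the hairpin numbers have no counterpart among the single controls. The planned comparison of the SCD and SCD5 proteins was not run. Differences below an array's median are limited by unknown background.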

Other observations

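Of 12 measured genes of mitochondrial fatty acid oxidation, 11 passed the level filter, ACADL being the exception. In CRL-5907 with NEDD9 overexpressed, 10 of the 11 were lower and 1 was higher, against 37.5% lower among all genes above level. ACADM, ACADVL, ETFDH, CPT2 and HADHA count on differences of -0.01 to -0.12, inside the hairpin spread at their level. The median difference over all 12 was -0.10, so the differences were small, and the difference from the fatty acid synthesis genes was not tested. HADHB, a subunit of the trifunctional protein, was at 8.05 with overexpression and 8.36 in the control, and DECR1, which removes double bonds during oxidation, at 7.96 with overexpression and 8.22 in the control. With knockdown in A549, 8 of the 11 were higher with both hairpins, against 53.8% of all genes above level. Some of these also count on differences inside the spread, such as HADHB with hairpin 2 (0.002). DECR1 was at 7.84 with hairpin 1 and 7.77 with hairpin 2, against 7.46 in the A549 control. ACADM, the medium-chain acyl-CoA dehydrogenase, was at 7.48 with hairpin 1 and 7.24 with hairpin 2, against 6.99. SLC25A20, the carnitine carrier of mitochondria, was 0.22 and 0.23 higher with hairpins 1 and 2, and differed by -0.20 with overexpression. Between the controls it differed by -1.43, at 6.07 in A549 and 7.5 in CRL-5907.

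Genes of lipid droplets and glycerolipid synthesis that passed the filter were lower with both hairpins in 5 of 10 cases, against 21.5% of all genes above level. PLIN2, the coat protein of lipid droplets, was at 8.22 with hairpin 1 and 8.28 with hairpin 2, against 8.64 in the A549 control. It was at 6.71 with overexpression, against 6.36 in the CRL-5907 control, and 2.27 higher in the A549 control than in the CRL-5907 control. PNPLA2, a triglyceride lipase, differed by -0.25 and -0.21 with hairpins 1 and 2, PLIN3, another droplet coat protein, by -0.20 and -0.26, and AGPAT2, an acyltransferase of phosphatidic acid synthesis, by -0.17 and -0.26. With overexpression 5 of 9 above level were higher and 4 lower, near the shares of 58.7% and 37.5% over all genes above level. ACSL4, an acyl-CoA synthetase of polyunsaturated fatty acids, was the lowest at -0.43.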
